A study of Mus musculus with 4 samples.

Results

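The Hox genes encode homeodomain transcription factors that lie in 4 clusters, Hoxa to Hoxd. The deposited table lists 34 of them among 17958 genes, taken as every gene whose symbol is Hox, a cluster letter and a number. The 34 comprise 10 Hoxa, 9 Hoxb, 9 Hoxc and 6 Hoxd genes, and each carries the gene identifier that RefSeq gives for its symbol. RefSeq names 39 such genes in the mouse, and Hoxa13, Hoxb13, Hoxd1, Hoxd12 and Hoxd13 were not analysed here.

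Polyadenylated RNA of mouse samples labelled as epidermal keratinocytes was sequenced in 4 libraries. Libraries named IL-36Ra-cKO (n = 2) were compared with libraries named IL-36Rafl/fl (n = 2). IL-36Ra is the antagonist of the IL-36 receptor, cKO stands for a conditional knockout and fl/fl for its floxed control. The genotype field calls the cKO-named group a knockdown and the fl/fl-named group WT, and treatment is given as none. The labels used here give no age, sex, strain, Cre driver or body site, and do not say whether the libraries of a group are separate animals. Whether all 4 came from the same body site is therefore not known, and a difference in site cannot be told apart from one in genotype or replicate. The spread behind each p-value is that of these samples alone and may be technical.

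Along each cluster the genes are numbered from the anterior end, and genes of the same number in different clusters are called paralogs. In the embryo, low-numbered genes are switched on early and far forward, and high-numbered genes later and toward the tail. Adult skin keeps part of this pattern, so that the set of expressed numbers works as a positional code of the body site, best known from dermal fibroblasts. Hoxc13 stands outside that code, since hair and nail epithelium uses it all over the body to switch on hair keratin genes.

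Total counts ran from 14622791 to 16490602 per library. Il1f5, the older symbol of the gene for IL-36Ra, was counted 3258 and 2508 times under the cKO label and 3743 and 3489 times under fl/fl, so its level did not set the labels apart (adjusted p = 0.509, edgeR). The Y-linked gene Ddx3y had 1575 and 2002 counts under the cKO label against 0 and 1 under fl/fl, so sex and genotype label cannot be told apart. Summed keratinocyte markers (8 of 8 detected) ran from 25381 to 30691 TPM, a level scaled for transcript length and library size. The 8 dermal fibroblast markers were all detected in every library, so the samples were not keratinocytes alone. cKO replicate 2 stood apart from its group partner in several tissues. Its 12 hair markers summed to 15.6 TPM against 1525 in cKO replicate 1 and 6757 and 5591 under fl/fl, with Krt31, Krt33a, Krt33b, Krt34, Krt35, Krt81, Krt86 and Dsg4 at 0. Its 8 skeletal muscle markers summed to 996 TPM against 23.2, 74.8 and 86.5 in the other libraries.

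In 3 of the 4 libraries the code ended at the same numbers, and in cKO replicate 2 it reached further toward the posterior end. A gene was counted as expressed at 1 TPM or more. By that measure 22 Hox genes were expressed in all 4 libraries, among them Hoxa2 to Hoxa7, Hoxb2 to Hoxb8, Hoxc4, Hoxc5, Hoxc6, Hoxc8 and Hoxc13, and Hoxd4, Hoxd8 and Hoxd9. In the fl/fl-labelled libraries nothing was added to this set. cKO replicate 1 added Hoxd3, at 1.08 TPM. cKO replicate 2 added Hoxa9, Hoxa10, Hoxb9, Hoxc9, Hoxc10 and Hoxd10, for 28 in all. Hoxa11, Hoxb1, Hoxc11, Hoxc12 and Hoxd11 stayed below 1 TPM everywhere, with at most 3 counts in any library.

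**Figure D1:**
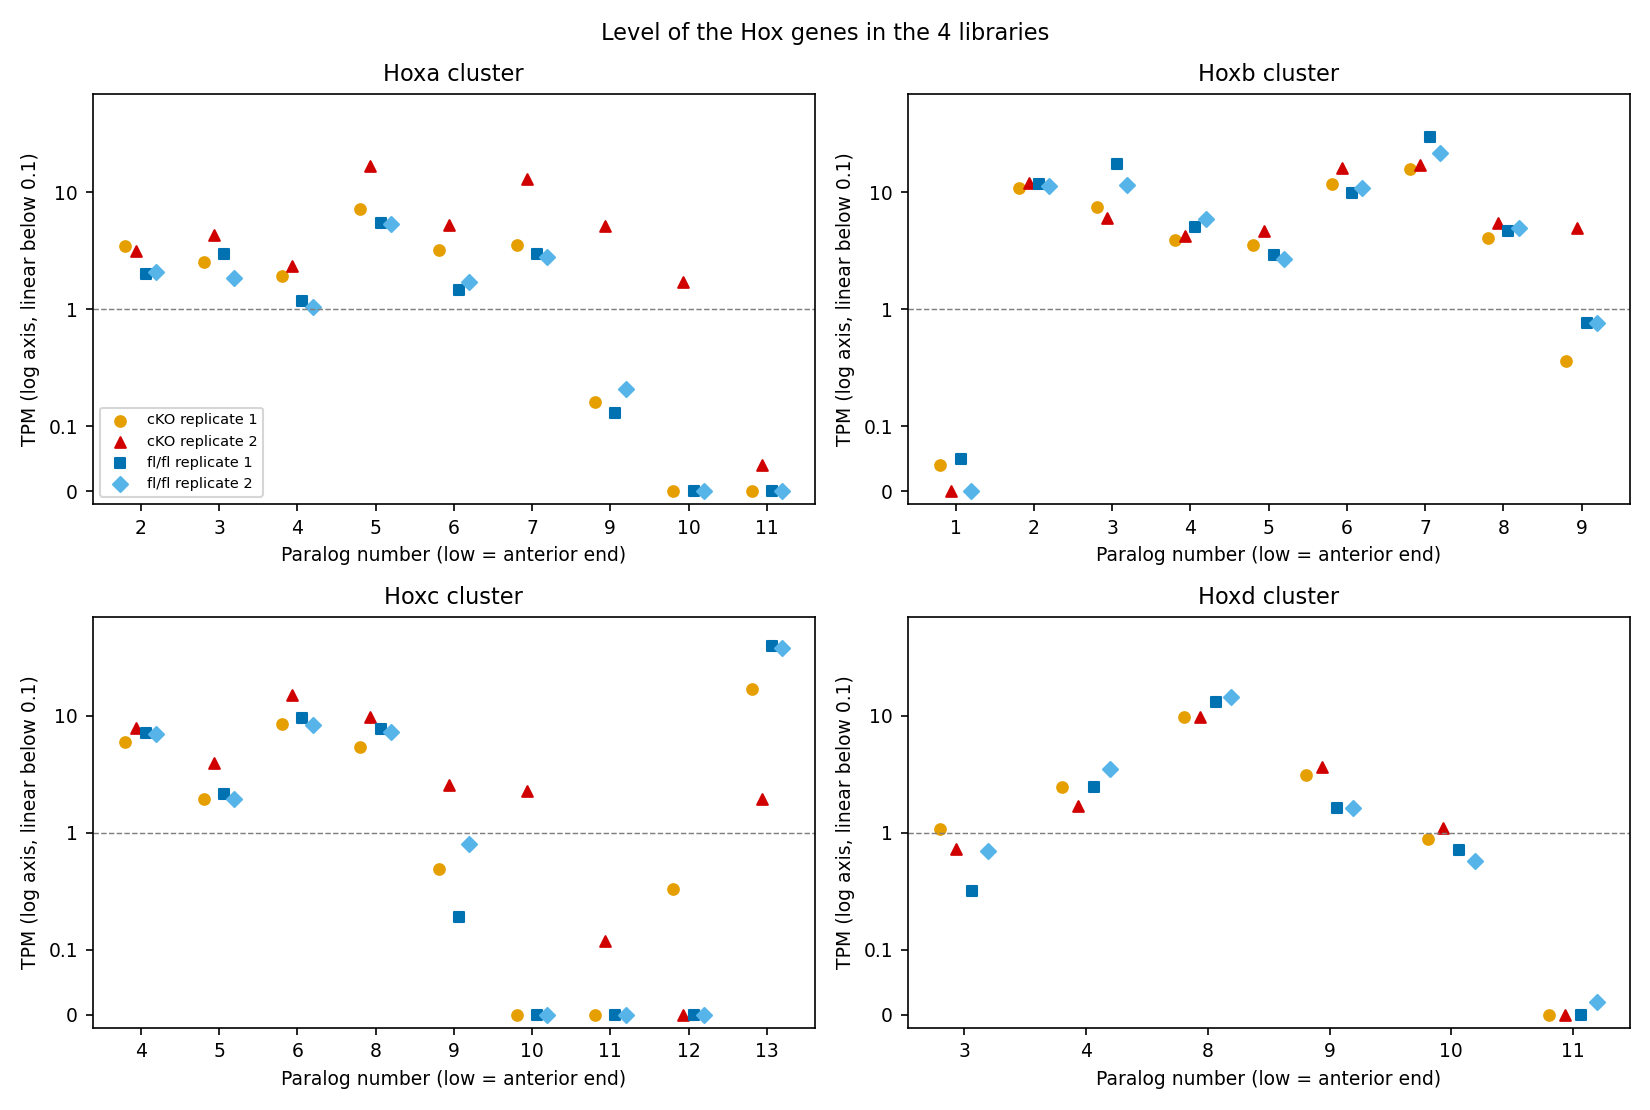
TPM of the Hox genes in each library, 1 panel per cluster, with genes ordered by paralog number, a log axis that is linear below 0.1, and a dashed line at 1 TPM. At paralogs 9 and 10 the red triangles of cKO replicate 2 stand above the other libraries in Hoxa, Hoxb and Hoxc, while Hoxc13 is lowest there.

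Every one of the 6 genes that crossed 1 TPM in cKO replicate 2 alone was numbered 9 or 10. Few others could have done so. Of the listed genes numbered 1 to 8, all but Hoxb1 and Hoxd3 reached 1 TPM in every library. Of 13769 genes that reached 1 TPM in any library, 1.34% did so in cKO replicate 2 alone, against 6 of 29 Hox genes. The level was highest in cKO replicate 2 for 21 of those 29 Hox genes, and for 21.8% of the 13769. The 6 genes that passed 1 TPM through that library alone are among the 21 by construction. Over all listed genes, with no limit on level, it was highest there for 5 of 11 numbered 1 to 4, 9 of 11 numbered 5 to 8 and 9 of 11 numbered 9 to 12. The last group includes Hoxa11 and Hoxc11, which had 1 count each. These are descriptions of single libraries and carry no test.

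The 11 genes numbered 9 to 12 had 586 counts together in cKO replicate 2, and 120, 72 and 99 counts in cKO replicate 1, fl/fl replicate 1 and fl/fl replicate 2. As summed levels these were 21.6 TPM against 5.36, 3.44 and 4.01. Without Hoxd, left out after its values were seen, the counts were 480 against 29, 27 and 47, and the levels 16.9 TPM against 1.34, 1.09 and 1.77. The genes numbered 1 to 8 summed to 162 TPM in cKO replicate 2 and to 116, 142 and 129 in the other libraries. Over all clusters the ratio of cKO replicate 2 to the others was thus larger for the summed posterior genes than for the rest.

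Hoxa9 and Hoxa10 are AbdB-type genes, the posterior class of Hox genes, known for roles in the lower trunk, the limb and the reproductive tract. Hoxa9 stood at 5.15 TPM (187 counts) in cKO replicate 2 and at 0.16, 0.13 and 0.21 TPM (6, 4 and 8 counts) in cKO replicate 1 and fl/fl replicates 1 and 2. Hoxa10 had 43 counts (1.71 TPM) in cKO replicate 2 and 0 in each of the others. There 3 counts, the limit that a count of 0 allows, correspond to 0.182 to 0.204 CPM (counts scaled to library size). Both were at or near the floor in all but 1 library, and the groups overlapped for Hoxa9. In CPM, Hoxa9 was 31.4 times as high in cKO replicate 2 as in its group partner (95% exact interval 14.1 to 86.6). Hoxa10 was at least 14.4-fold higher there, set against 3 counts in cKO replicate 1. Such intervals and floors cover counting error only.

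Within Hoxa the distance between both cKO-labelled libraries widened toward the posterior end. Hoxa2 and Hoxa4 had ratios of cKO replicate 2 to replicate 1 of 0.902 and 1.20, with intervals that included 1. Hoxa3 (1.52) and Hoxa6 (1.62) lay somewhat above 1. Hoxa5, which patterns the neck and upper trunk and the lung, had a ratio of 2.31 (interval 1.90 to 2.82). Hoxa7 had 3.66 (2.83 to 4.78), and Hoxa9 followed with 31.4. Hoxa5 was the most abundant gene of the cluster in every library.

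**Figure D2:**
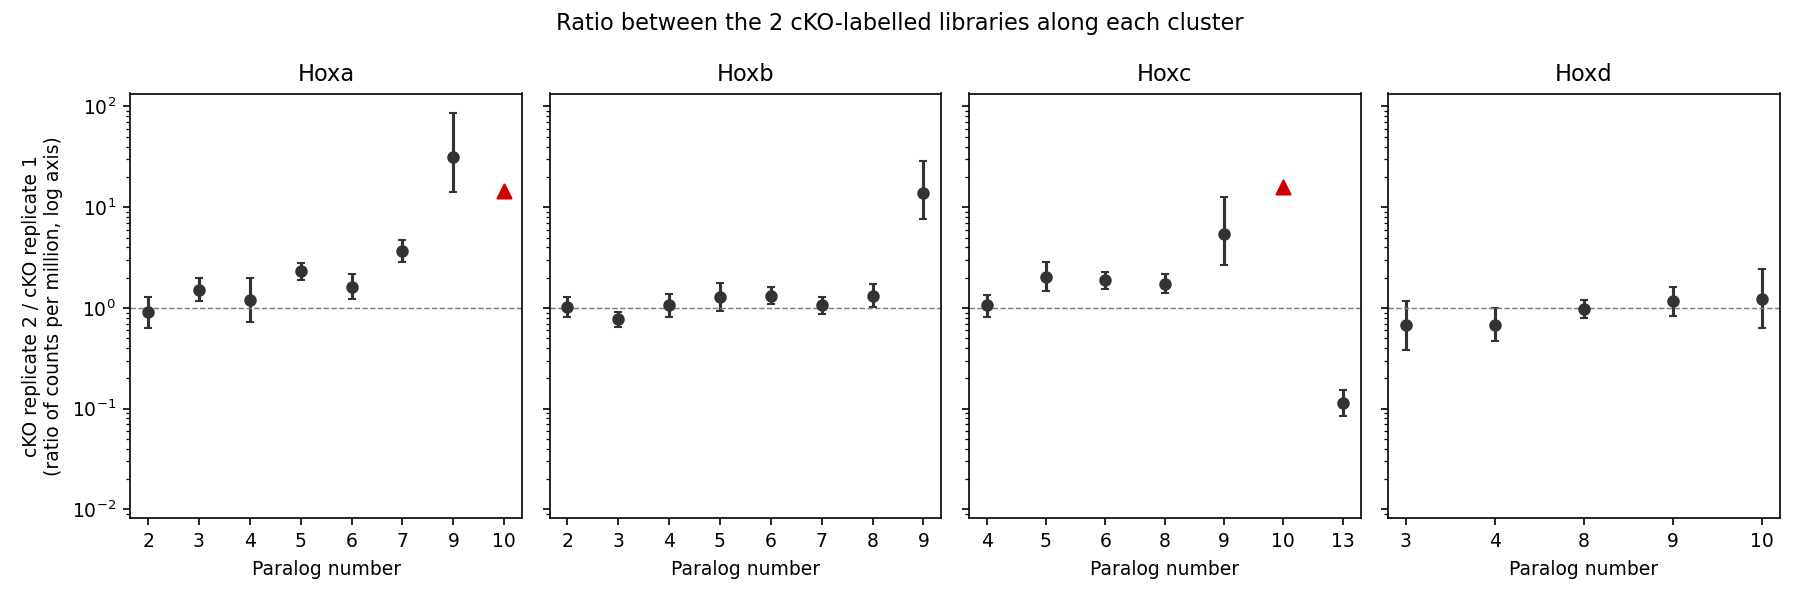
Ratio of CPM in cKO replicate 2 to cKO replicate 1 for Hox genes above the floor, by cluster and paralog number, on a log axis; bars are 95% exact counting intervals and red triangles are lower bounds for genes with 0 counts in replicate 1. Ratios stay near 1 at low numbers and reach 31.4 for Hoxa9, 13.9 for Hoxb9 and 5.48 for Hoxc9, while Hoxd lacks such a step and Hoxc13 lies at 0.115.

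Promoter sequences of RefSeq (250 bases before and 50 after each start, build GRCm38.p6) were at hand for 18 of the 34 genes. Those of Hoxa7, Hoxa9 and both Hoxa10 starts are shown because these neighbours carry the step in cKO replicate 2. Hoxb8 is shown beside them as a gene whose level hardly varied between libraries. Capitals mark, on either strand, TTTATNG and TTTATNA, which hold a core bound by posterior HOX and by CDX proteins, TGATTNAT, a composite letter pattern of PBX and HOX, and TAATTA, a core of many homeodomains.
Hoxa7, chr6:52218524-52218823, minus strand: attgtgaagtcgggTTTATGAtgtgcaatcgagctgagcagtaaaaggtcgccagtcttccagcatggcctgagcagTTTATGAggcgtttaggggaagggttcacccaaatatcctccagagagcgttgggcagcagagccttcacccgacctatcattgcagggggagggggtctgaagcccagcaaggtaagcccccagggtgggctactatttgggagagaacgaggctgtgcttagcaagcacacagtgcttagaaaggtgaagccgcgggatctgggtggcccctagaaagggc
Hoxa9, chr6:52227321-52227620, minus strand: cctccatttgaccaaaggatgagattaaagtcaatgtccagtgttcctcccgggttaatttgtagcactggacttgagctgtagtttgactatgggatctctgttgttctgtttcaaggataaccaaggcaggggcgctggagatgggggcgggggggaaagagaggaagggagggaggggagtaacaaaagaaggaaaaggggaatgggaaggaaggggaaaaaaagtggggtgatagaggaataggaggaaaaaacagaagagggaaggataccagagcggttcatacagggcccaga
Hoxa10, chr6:52234890-52235189, minus strand: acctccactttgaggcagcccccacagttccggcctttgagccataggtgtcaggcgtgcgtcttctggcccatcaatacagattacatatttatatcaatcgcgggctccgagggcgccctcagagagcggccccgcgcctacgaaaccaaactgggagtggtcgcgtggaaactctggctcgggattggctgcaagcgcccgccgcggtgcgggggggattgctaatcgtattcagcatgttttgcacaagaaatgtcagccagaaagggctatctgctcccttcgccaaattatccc
Hoxa10, chr6:52240805-52241104, minus strand: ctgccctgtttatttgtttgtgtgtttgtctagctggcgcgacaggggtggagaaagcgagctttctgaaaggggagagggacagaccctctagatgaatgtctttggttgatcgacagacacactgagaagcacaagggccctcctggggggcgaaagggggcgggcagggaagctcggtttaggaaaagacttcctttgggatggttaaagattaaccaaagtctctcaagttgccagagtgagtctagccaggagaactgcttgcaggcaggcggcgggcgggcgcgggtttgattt
Hoxb8, chr11:96281655-96281954, plus strand: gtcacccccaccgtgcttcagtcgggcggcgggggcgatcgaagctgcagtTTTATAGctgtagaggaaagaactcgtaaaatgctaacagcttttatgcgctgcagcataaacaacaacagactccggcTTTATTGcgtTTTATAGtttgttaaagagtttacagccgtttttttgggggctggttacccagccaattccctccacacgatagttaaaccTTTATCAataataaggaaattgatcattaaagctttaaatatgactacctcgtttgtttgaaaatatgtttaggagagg

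Hoxa7 held 2 matches to TTTATNA, and Hoxb8 held 3 to TTTATNG and 1 to TTTATNA. The windows of Hoxa9 and Hoxa10 held no match to any of these letter patterns. Of 32851 RefSeq promoters of the same length, 10.9% held TTTATNG, 14.1% TTTATNA, 3.22% TGATTNAT and 5.29% TAATTA. The letters are a description and say nothing of binding. The Hoxa10 windows had 21 and 12 CpG dinucleotides and Hoxa9 had 4, against a median of 7 over all promoters.

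Hoxb carried the largest summed level of any cluster in each library. The sum was 57.9 and 70.7 TPM under cKO and 82.5 and 69.8 TPM under fl/fl, or 38.1% to 44.5% of all Hox TPM. Hoxb7, a middle-trunk gene, was its most abundant member on average, at 15.7 and 17.3 TPM under cKO and 29.9 and 21.8 TPM under fl/fl. Both cKO-labelled libraries lay below both fl/fl-labelled ones, but the log2 fold change was only -0.39 ± 0.21 (SE, edgeR adjusted p = 0.248). Hoxb2, a hindbrain gene in the embryo, stood at 10.99 and 11.9 against 11.9 and 11.3 TPM. Hoxb4 lay between 3.92 and 5.87 TPM and Hoxb8 between 4.06 and 5.45 TPM.

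Hoxb9 was the exception within the cluster. It stood at 4.99 TPM in cKO replicate 2 and at 0.36 TPM in cKO replicate 1, a ratio of 13.9 in CPM (7.56 to 28.5). The fl/fl-labelled libraries had 0.77 and 0.76 TPM and lay between both cKO-labelled ones. Its log2 fold change of 1.96 ± 1.15 (SE, edgeR adjusted p = 0.281) therefore had no stable direction, and it was -0.88 without cKO replicate 2.

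Hoxc showed the same step at 9 and 10. Hoxc9, which marks thoracic motor neurons and trunk skeleton in the embryo, stood at 2.58 TPM in cKO replicate 2 against 0.49 TPM in cKO replicate 1 and 0.19 and 0.80 TPM under fl/fl. Hoxc10, a lumbar and hindlimb gene in the embryo, had 47 counts (2.28 TPM) in cKO replicate 2 and 0 in the other 3, which is at least 15.8-fold higher than in cKO replicate 1. Only cKO replicate 2 was clear of the floor for Hoxc10. The middle genes Hoxc5, Hoxc6 and Hoxc8 were 2.05, 1.88 and 1.74 times as high in cKO replicate 2 as in cKO replicate 1, with intervals above 1, and Hoxc4 had a ratio of 1.06 (0.819 to 1.36).

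Hoxd lacked that step. Its most abundant member, Hoxd8, stood at 9.74 and 9.84 TPM under cKO and 13.1 and 14.5 TPM under fl/fl, with a log2 fold change of -0.33 ± 0.19 (SE, edgeR adjusted p = 0.276). Hoxd10 crossed 1 TPM only in cKO replicate 2, at 1.11 TPM, but stood at 0.89 TPM in cKO replicate 1 and at 0.71 and 0.58 TPM under fl/fl. The ratio of its CPM between the cKO-labelled libraries was 1.23, with an interval of 0.630 to 2.43. Its log2 fold change was 0.76 ± 0.40 (SE, edgeR adjusted p = 0.248). Hoxd3 lay between 0.32 and 1.08 TPM and Hoxd4 between 1.71 and 3.48 TPM. The interval of Hoxd10 thus included 1, unlike those of Hoxa9, Hoxb9 and Hoxc9, and the bounds of Hoxa10 and Hoxc10 lay above it.

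A mean paralog number, weighted by TPM, was computed for each cluster. For Hoxa it was 5.59 in cKO replicate 2 and 4.48, 4.3 and 4.46 in cKO replicate 1 and fl/fl replicates 1 and 2. For Hoxb it was 5.50 against 5.08, 5.14 and 5.13, and for Hoxd 7.73 against 7.4, 7.53 and 7.3. For Hoxc with Hoxc13 left out it was 6.42 against 6.02, 5.99 and 6.04. The Hoxd value goes with a lower Hoxd4 in cKO replicate 2 (1.71 TPM against 2.48, 2.49 and 3.48) as well as with the levels of Hoxd9 and Hoxd10. With Hoxc13 counted in, Hoxc turned the other way, at 6.71 in cKO replicate 2 against 9.02, 10.18 and 10.2.

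Other tissues also differed in cKO replicate 2, and these values stand beside its code. The 8 skeletal muscle markers were highest there for 7 genes, with Acta1, skeletal actin, at 296 TPM against 5.59, 22.8 and 29.5. The 8 dermal fibroblast markers were highest there for 6, and their sum was 2016 TPM against 1144, 1044 and 1306. The others were Lum, at 144 TPM against 66.9, 162 and 138, and Pdgfra, at 2.51 TPM against 2.1, 6.55 and 10.1. The 5 melanocyte markers summed to 11.2 TPM against 184, 473 and 454. In bulk tissue a larger number of cells of a type and more RNA per cell cannot be told apart, and the part of muscle and dermis in the posterior code was not tested.

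Between the labelled groups, with every log2 fold change given as cKO minus fl/fl, no Hox gene passed an adjusted p of 0.05 in edgeR, where 0.0277% of 14459 genes did. Of the 34 genes, 26 had enough counts in at least 2 libraries to be tested, and Hoxa9, Hoxa10, Hoxa11, Hoxb1, Hoxc10, Hoxc11, Hoxc12 and Hoxd11 had not. At an unadjusted p under 0.05, 8 of the 26 were higher and 1 was lower under the cKO label, against 16.5% and 15.6% of all genes tested. Both cKO-labelled libraries lay above both fl/fl-labelled ones for 14 Hox genes and below them for 5, against 34.8% and 32.9% of all genes. The median log2 fold change was 0.66 over the Hox genes and close to 0 over all genes. Without cKO replicate 2 the Hox median was 0.133, with 16 values positive and 10 negative. Leaving out any other library gave 0.529 to 0.791. With limma on log2 TPM (pseudocount 1 or 0.1) the Hox median was 0.171 and 0.19, against -0.157 and -0.175 over all genes. DESeq2 called 4 of the 26 (Hoxa5, Hoxa6, Hoxb3 and Hoxd9) at an adjusted p under 0.05, where it called 19.1% of all genes, and limma on log2 TPM called 0 of 22 tested.

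These counts rested on single libraries. Without cKO replicate 2, 3 Hox genes were higher at an unadjusted p under 0.05 (14.5% of all genes), and without cKO replicate 1, 12 were (12% of all genes). Leaving out fl/fl replicate 1 gave 1 (7.43%), and leaving out fl/fl replicate 2 gave 2 (11.1%). With cKO replicate 1 left out, edgeR called Hoxa5, Hoxa7, Hoxb9 and Hoxc13 at an adjusted p under 0.05, against 5.69% of all genes, so the only cKO-labelled library in that fit was replicate 2.

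**Figure D3:**
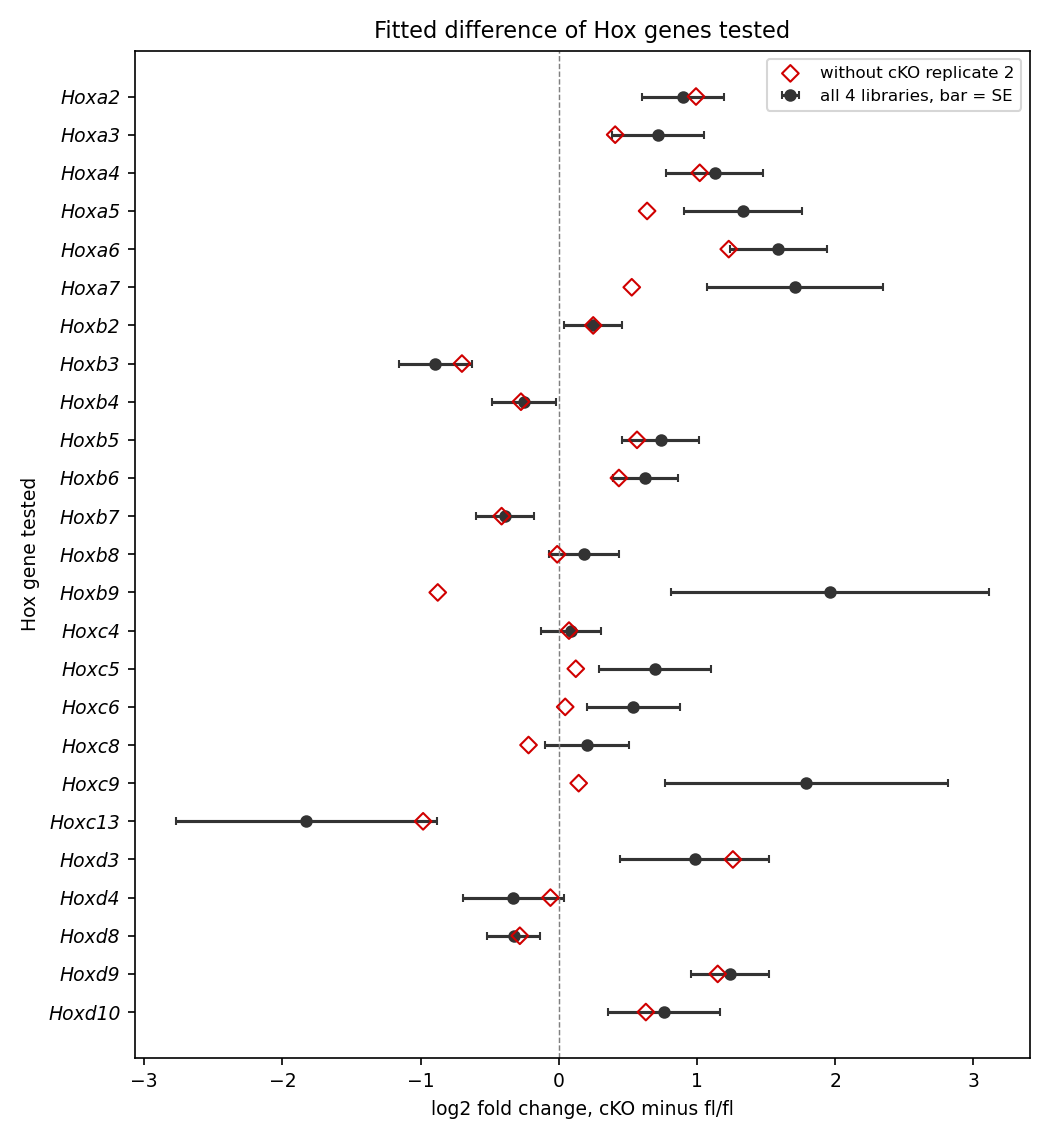
Fitted log2 fold change (cKO minus fl/fl) of the Hox genes tested, with all 4 libraries (filled, bar = SE) and without cKO replicate 2 (open diamonds). Hoxa5, Hoxa7, Hoxb9, Hoxc9 and Hoxc13 move most when that library is left out, whereas Hoxa2 and Hoxd9 move by less than their SE.

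The Hoxa genes held 5 of the 8 higher values at an unadjusted p under 0.05. That is 5 of the 7 Hoxa genes tested, against 16.5% of all genes. The log2 fold change was above 0 for each of the 7 tested, and its median was 1.13. Hoxa6, a trunk gene next to Hoxa5, stood at 3.21 and 5.23 TPM under cKO and at 1.46 and 1.70 TPM under fl/fl. The groups did not overlap, and the log2 fold change was 1.59 ± 0.35 (SE, edgeR adjusted p = 0.0823), or 1.23 without cKO replicate 2. Hoxa5 stood at 7.22 and 16.9 against 5.43 and 5.41 TPM. Its log2 fold change of 1.33 ± 0.43 (SE, edgeR adjusted p = 0.122) came to 0.64 without cKO replicate 2. Hoxa7 had 3.54 and 13.1 TPM against 2.95 and 2.79 TPM, and its 1.71 ± 0.64 (SE, edgeR adjusted p = 0.149) came to 0.53. Without cKO replicate 2 the Hoxa median was 0.64, and 6 of 7 values stayed positive. Leaving out fl/fl replicate 1 or fl/fl replicate 2 gave medians of 1.20 and 1.05, and leaving out cKO replicate 1 gave 1.23. The number higher at an unadjusted p under 0.05 fell without cKO replicate 2 and without either fl/fl replicate.

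Hoxa2 and Hoxa4, toward the anterior end, lay higher in both cKO-labelled libraries alike. Hoxa2, a gene of the second branchial arch, stood at 3.48 and 3.18 against 2.00 and 2.10 TPM, with a log2 fold change of 0.90 ± 0.30 (SE, edgeR adjusted p = 0.126) and 0.99 without cKO replicate 2. Hoxa4 stood at 1.91 and 2.34 against 1.19 and 1.04 TPM. Hoxa3 lay between 1.87 and 4.36 TPM (edgeR adjusted p = 0.203). In RefSeq the span of Hoxa3 overlaps Hoxa4, Hoxa5 and Hoxa6. The promoters at hand put Hoxa3, Hoxa5 and Hoxa6 on the same strand, so strand would not separate their reads. How reads were split between the overlapping genes cannot be told.

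In the other clusters Hoxd9 and Hoxb3 had the smallest p. Hoxd9, a posterior trunk and limb gene, stood at 3.13 and 3.66 TPM under cKO and at 1.64 TPM in both fl/fl-labelled libraries. Its log2 fold change was 1.24 ± 0.28 (SE, edgeR adjusted p = 0.0841), and 1.15 without cKO replicate 2, so replicates 1 and 2 were alike here. Hoxb3, which with Hoxa3 patterns the neck and hindbrain, was the only Hox gene lower at an unadjusted p under 0.05. It stood at 7.44 and 5.99 TPM under cKO and 17.3 and 11.6 TPM under fl/fl, without overlap (log2 fold change -0.89 ± 0.26 SE, edgeR adjusted p = 0.109). The RefSeq span of Hoxb3 covers Hoxb4, whose log2 fold change was -0.25 ± 0.23 (SE, edgeR adjusted p = 0.469).

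Hoxb5 (3.57 and 4.67 against 2.94 and 2.70 TPM) and Hoxb6 (11.8 and 16.2 against 9.95 and 10.8 TPM) were the remaining genes higher at an unadjusted p under 0.05. The log2 fold change of Hoxb6 was 0.62 ± 0.24 (SE, edgeR adjusted p = 0.152). Within Hoxc that p was not reached by any gene. Hoxc6, the most abundant Hoxc gene after Hoxc13, stood at 8.44 and 14.9 against 9.55 and 8.37 TPM, so the groups overlapped. Hoxc9 had a log2 fold change of 1.79 ± 1.03 (SE, edgeR adjusted p = 0.272), which was 0.14 without cKO replicate 2. No direction is given for Hoxb2, Hoxb8, Hoxc4 and Hoxc8, since theirs turned on the TPM scale, where the median of all genes itself lay at -0.16.

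Hoxc13, the hair gene, had the highest mean TPM of the 34 Hox genes. It stood at 17.0 TPM (466 counts) in cKO replicate 1 and at 1.96 TPM (53 counts) in cKO replicate 2. In the fl/fl-labelled libraries it stood at 39.8 and 37.9 TPM (922 and 1070 counts). Both cKO-labelled libraries lay below both fl/fl-labelled ones, which were alike. The spread between the cKO-labelled libraries was wide, at 9.47 ± 10.6 TPM against 38.9 ± 1.36 TPM (SD, n = 2). The log2 fold change was -1.83 ± 0.94 (SE, edgeR adjusted p = 0.236), with a 95% interval from -4.29 to 0.63. Without cKO replicate 2 it was -0.98 and without cKO replicate 1 it was -4.16.

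Hoxc13 did not go with Hoxc9 and Hoxc10. In cKO replicate 2 it had 0.115 times its level in cKO replicate 1 (0.0845 to 0.152, CPM), whereas Hoxc9 and Hoxc10 were higher there. Its adjacent gene Hoxc12 had 3 counts in cKO replicate 1 and 0 elsewhere, and Hoxc11 had 1 count in cKO replicate 2 and 0 elsewhere. In 3 libraries Hoxc13 therefore stood alone at the posterior end of Hoxc, with the genes numbered 9 to 12 between 0.19 and 0.82 TPM together. The Hoxc sum was 39.5 and 43.6 TPM under cKO and 66.6 and 63.3 TPM under fl/fl, and without Hoxc13 it was 22.6 and 41.6 against 26.8 and 25.4 TPM, with cKO replicate 1 below and cKO replicate 2 above both fl/fl-labelled libraries.

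**Figure D4:**
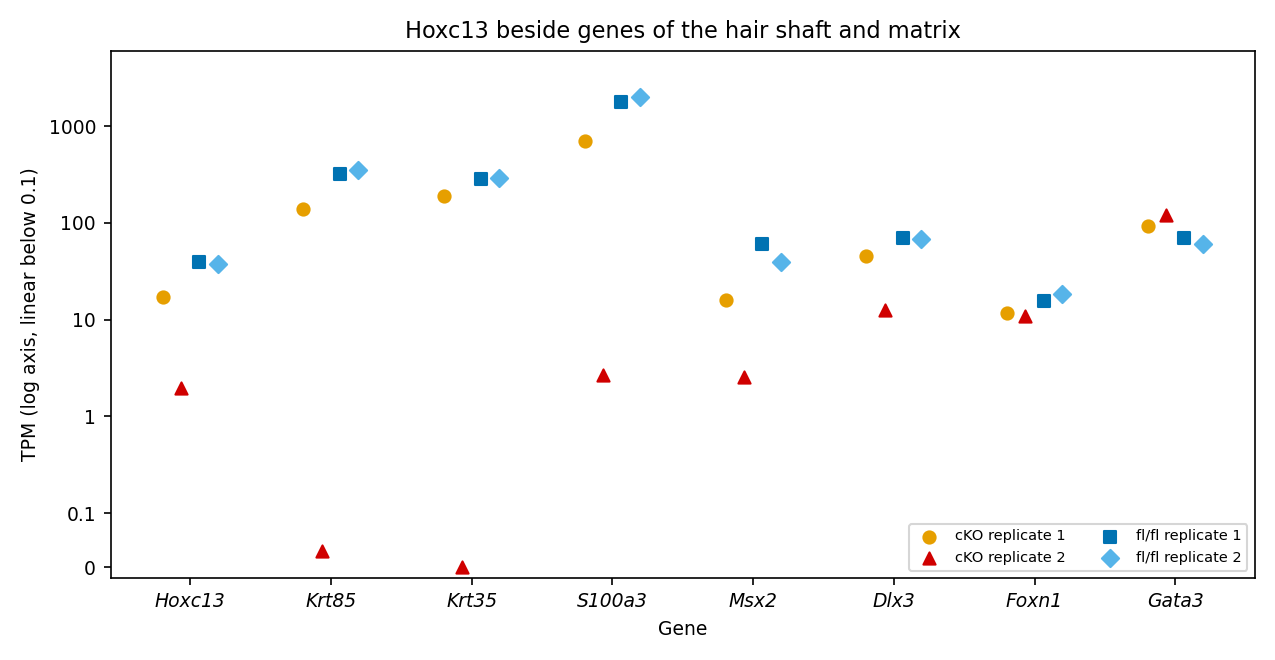
TPM of Hoxc13 and 7 genes from the list of hair genes, by library, on a log axis that is linear below 0.1. Hoxc13, Krt85, Krt35, S100a3, Msx2 and Dlx3 are lowest in cKO replicate 2, whereas Foxn1 is nearly level between the cKO-labelled libraries and Gata3 is highest in cKO replicate 2.

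A list of 34 hair genes, placed downstream of Hoxc13 or beside it, was read with it. Gata3 and inner root sheath keratins such as Krt71 are on the list as well as genes of shaft and matrix. Whether its members depend on Hoxc13 was not tested. All 34 were tested, and the median was -2.17. The 32 with negative log2 fold changes lay lower in both cKO-labelled libraries, as did 32.9% of all genes tested. At an unadjusted p under 0.05, 4 were lower and 1 was higher, against 15.6% and 16.5% of all genes, and 0 passed adjustment (edgeR). Without cKO replicate 2, 24 were lower (10.8% of all genes), and without cKO replicate 1, 31 were (12.9%). Leaving out fl/fl replicate 1 gave 2 (8%), and leaving out fl/fl replicate 2 gave 1 (16%). Krt85 and Krt35, hair keratins made early in the forming shaft, had 139 and 191 TPM in cKO replicate 1 and 0.03 and 0 TPM in cKO replicate 2. Under fl/fl they had 319 and 352 TPM and 286 and 289 TPM. These keratins were near 0 where Hoxc13 was lowest, although 53 counts of Hoxc13 remained.

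Regulators among these hair genes did not all go together. Msx2, a homeobox gene of the matrix, stood at 16.0 and 2.57 TPM under cKO and 60.4 and 39.7 TPM under fl/fl, much as Hoxc13 did. Dlx3, a homeobox gene of hair and differentiated epidermis, stood at 45.6 and 12.4 against 69.01 and 68.3 TPM. Foxn1, the nude gene and a target of Hoxc13 in the mouse nail and hair, stood at 11.8 and 10.9 against 15.7 and 18.3 TPM, with little difference between the cKO-labelled libraries. Foxq1, a further target in mouse hair, had 5.23 and 8.96 against 5.55 and 6.42 TPM. Gata3, an inner root sheath and epidermal factor, was the 1 gene of the list that was higher, at 92.1 and 121 against 69.7 and 60.7 TPM (log2 fold change 0.88 ± 0.21 SE, edgeR adjusted p = 0.0887). Krtap3-1 and Krt34, which stood next by p, had 0.24 and 0 TPM in cKO replicate 2. With melanocyte markers low in the same library, the share of hair follicle in each sample and its part in the Hoxc13 values was not tested.

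The TALE homeodomain proteins, which bind DNA together with HOX proteins, had no common direction. Of 9 tested, an unadjusted p under 0.05 was reached by 1 on the higher and 1 on the lower side, against 16.5% and 15.6% of all genes, the median log2 fold change was 0.07, and 0 passed adjustment. Pbx3 had 4.13 and 3.47 against 7.68 and 6.90 TPM (log2 fold change -0.76 ± 0.22 SE, edgeR adjusted p = 0.110). Pknox2 had 0.75 and 0.84 against 0.29 and 0.36 TPM, and Pbx4, next by p, had 3.62 and 2.69 against 2.3 and 1.00 TPM. The count of higher genes was 0 without cKO replicate 2 or fl/fl replicate 2, and that of lower genes 0 without either fl/fl replicate.

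Polycomb and Trithorax genes keep Hox clusters silent or active in the cells' progeny. Of 38 tested, an unadjusted p under 0.05 was reached by 7 that were higher and 6 that were lower, with a median of -0.14 and 0 past adjustment (edgeR). These shares are near the 16.5% and 15.6% of all genes. Cbx7, a subunit of Polycomb repressive complex 1, stood at 15.7 TPM in both cKO-labelled libraries against 7.64 and 7.44 TPM (log2 fold change 1.22 ± 0.16 SE, edgeR adjusted p = 0.0669). Kdm6a, the X-linked demethylase that removes the Polycomb mark and escapes X inactivation, stood at 8.30 and 10.3 against 34.2 and 21.5 TPM, beside the difference in Y-linked reads. Phf1, a Polycomb complex 2 partner, had 10.9 and 11.99 against 5.11 and 6.51 TPM. Both counts rose or fell with the library that was left out.

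Other positional transcription factors were read for limb and ventral skin. Tbx4 and Pitx1, hindlimb genes, stayed at or below 0.11 and 0.28 TPM, and Tbx5, a forelimb gene, had 1 count in cKO replicate 1 and 0 elsewhere. En1, which marks ventral limb and paw skin, lay between 0.41 and 0.87 TPM. Genes of limb mesenchyme that other mesenchyme shares were higher, with Prrx1 between 7.69 and 18.4 TPM, Prrx2 between 2.55 and 5.22 TPM and Shox2 between 1.98 and 3.34 TPM. Tbx15, a gene of dorsal skin, was read in each library, at 3.39 and 5.99 TPM under cKO and 5.35 and 8.44 TPM under fl/fl.

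Of the 51 genes on that list 42 were in the table and 32 tested. At an unadjusted p under 0.05, 3 were higher and 7 lower (16.5% and 15.6% of all genes). The median was -0.97, with 23 values negative and 9 positive, and 0 passed adjustment (edgeR). The list shares Msx2 (log2 fold change -2.21) and Dlx3 (-1.04) with the hair list, so its median is not one of body position alone. The count of higher genes fell with any library left out. That of lower genes rose without either cKO replicate and fell without either fl/fl replicate. Tbx18 was among those lower, at 0.16 and 0.27 against 0.82 and 1.10 TPM (log2 fold change -1.98 ± 0.43 SE, edgeR adjusted p = 0.0819). Twist1, a mesenchymal factor, was higher at 9.35 and 15.4 against 5.81 and 6.93 TPM (log2 fold change 1.15 ± 0.31 SE, edgeR adjusted p = 0.1001). Emx2, a gene of limb girdle and urogenital tissue, stood at 1.23 TPM in cKO replicate 2 and at 0.37, 0.68 and 0.72 TPM elsewhere.

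Genes next to the clusters were read from the same table. Of 17 neighbours, 14 were in the table and 12 tested, where an unadjusted p under 0.05 was reached by 0 that were higher and 2 that were lower, with a median of -0.37 (edgeR, 0 past adjustment). Over all genes these shares were 16.5% and 15.6%. Cbx5, beyond the Hoxc4 end, stood at 12.02 and 12.6 against 25.9 and 23.2 TPM. Lnpk, on the Hoxd13 side, stood at 5.13 and 6.54 against 19.2 and 8.62 TPM, and Mtx2, beyond Hoxd1, at 58.6 and 61.9 against 106 and 81.4 TPM. In all 3 the cKO-labelled libraries were close to each other. The count of lower genes rose or fell with the library that was left out.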

How the data were processed

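RNA of 4 mouse libraries (2 per label) was analysed from 1 deposited table, and groups come from the sample names. The authors deposited estimated counts per gene, TPM, FPKM and a normalized count treated as a signal, plus group means of each, per the file headers; FPKM, the signal and the means were not used. The submitters' processing notes name GRCm39, RSEM 1.3.1, DESeq2 1.4.5 and Bowtie2 2.3.4.3 without their roles, and 11.05% to 13.02% of the estimated counts per library were not whole. Gene models and strand setting were not given in the sources used here. Of the genes listed, 0 had 0 counts in all libraries.

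Counts were rounded and tested over the whole table with edgeR 4.0.16 (R 4.3.3, quasi-likelihood F test, two-sided, TMM, default filter). The fit was run beforehand on simulated data with a smaller spread between libraries than here. That run therefore does not show how the fit behaves on these data. With group as the one term, 14459 genes were tested, with 2 residual and 2.79 prior degrees of freedom, and p-values were adjusted by Benjamini-Hochberg at 0.05. The SE of a log2 fold change is not an edgeR output. It was derived as the absolute log2 fold change divided by the square root of F. The 95% interval of a log2 fold change is built from that SE with the t distribution. Alternatives were DESeq2 1.42.0, limma-trend 3.58.1 on TPM (at least 1 in 2 libraries) as log2 with a pseudocount of 1 or 0.1, other scalings and filters, the replicate block, and leaving out each library. Promoters come from RefSeq (GRCm38.p6), an older build than the authors', and no other coordinates are used. Values in every library and full statistics were to be given for Hoxc13 and, in each cluster, for the gene with the highest mean TPM, the highest-numbered expressed gene and the smallest p in each direction, and up to 3 members per companion list by p. Genes outside this rule were named after their values were seen. Some genes that enter the counts are not reported here by name. The members and lists were chosen with earlier results of these data known. The ratio of cKO replicate 2 to replicate 1, and the lists without each library, were added after the values were seen. Intervals between libraries are exact binomial (95%), and the floor is 3 counts per library.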

Additional observations from a re-analysis of the deposited data

How the results depend on the processing

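Of 26 Hox genes tested, the number past an adjusted p of 0.05 was 0 with edgeR and TMM, 4 with DESeq2 and 1 with no scaling factors. Over all genes these shares were 0.0277%, 19.1% and 9.4%. With libraries left out in turn the number changed only without cKO replicate 1. The number higher at an unadjusted p under 0.05 was 8. It was 4 with DESeq2 and with limma on either TPM scale, 5 with median-of-ratios or no scaling factors, and 1 to 12 with libraries left out. Of all genes, 16.5% were higher at that p with edgeR and TMM and 14.8% with DESeq2. The 4 of 26 Hox genes with DESeq2 were thus near the share of all genes. With limma the share was 11.3% on log2(TPM + 1) and 11.2% on log2(TPM + 0.1), where 22 Hox genes were tested. With median-of-ratios factors it was 15.7%, and with no scaling factors 15.3%. The number lower was 1. It was 2 with DESeq2 (17.9% of all genes) and with no scaling factors (16%). With limma on either TPM scale it was 3 of 22 (22.4% and 21.3%), and with libraries left out it rose or fell. With the replicate block 5 were higher and 2 lower (10.4% and 11.4% of all genes), and 0 passed adjustment. The correlation of same-numbered libraries' deviations was -0.13 over all genes and 0.137 over the Hox genes. With the numbers crossed 6 were higher and 1 lower (17.4% and 20% of all genes), and 0 passed adjustment. The Hoxc13 log2 fold change ran from -4.16 to -0.982 with libraries left out. On the log2(TPM + 1) and log2(TPM + 0.1) scales, direction turned for Hoxb2 (-0.0162, -0.0175), Hoxb8 (-0.0189, -0.0246), Hoxc4 (-0.0443, -0.0516) and Hoxc8 (-0.0282, -0.0382), where the median of all genes lay at -0.157 and -0.175. With libraries left out, Hoxb8 ran from -0.0117 to 0.348, Hoxb9 from -0.876 to 2.86 and Hoxc8 from -0.219 to 0.53, each lowest without cKO replicate 2. Weighted by log2(TPM + 1), the mean paralog number of Hoxa was 4.33 in fl/fl replicate 2, that of Hoxb 5.07 and 5.11 in fl/fl replicates 1 and 2, and that of Hoxc 8.19 and 8.24 there. That of Hoxd was 7.07 and 7.41 under cKO and 7.24 and 6.92 under fl/fl. Without Hoxc13 the Hoxc mean was 6.02 in cKO replicate 1 and 5.99 and 6.04 under fl/fl. The number of expressed Hox genes per library stayed within 1.5 times its value at 0.5 TPM, 2 TPM or 10 counts. The cause of these changes was not tested. With 2 libraries per group, and counts under 50 for Hoxa10 and Hoxc10, depth and number limit what can be said of posterior genes.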
